A study of Mus musculus with 6 samples.

Results

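The RNAseq data were examined for 10 genes that mark GABAergic interneurons of the hippocampus: Gad1, Gad2, Slc32a1, Pvalb, Sst, Vip, Npy, Cck, Lhx6 and Reln. They were chosen by gene symbol, for making and loading GABA or for marking interneuron subtypes, and all 10 were found among the 54838 genes counted. RNA came from the hippocampi of 3 wild-type and 3 FVB/NJ-Tg(Orai1)Ibd females at the age of 7 months, with 1 library per mouse. The transgenic mice carry a human ORAI1 cDNA, which codes for the pore subunit of the store-operated calcium channel, in a Thy1.2 expression cassette that drives it in neurons. No treatment is named for either group, and the libraries are of whole hippocampal tissue, so that fewer interneurons and less RNA per interneuron cannot be told apart. No source used here says whether mice of a group shared a litter.

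GABAergic interneurons are a minority of hippocampal neurons that inhibit pyramidal and granule cells. Gad1 and Gad2 code for both forms of glutamate decarboxylase, the enzyme that makes GABA from glutamate, and Slc32a1 codes for the transporter that loads GABA into synaptic vesicles. Subtypes are told apart by a calcium-binding protein (Pvalb), by neuropeptides (Sst, Vip, Npy, Cck), by the transcription factor Lhx6, which marks cells born in the medial ganglionic eminence, and by the secreted glycoprotein reelin (Reln). Not every marker is private to interneurons, since Cck is also transcribed in pyramidal cells and Reln in Cajal-Retzius cells.

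Among the 10 genes, Gad2 and Reln were lower in the transgenic hippocampi and no gene was higher. Gad2 stood at 178 ± 21.0 CPM (counts relative to the TMM-scaled library total; SD, n = 3) in wild-type and at 124 ± 8.58 CPM in transgenic mice, and Reln at 94.8 ± 7.16 against 68.3 ± 9.32 CPM. The markers of the main subtypes, Pvalb, Sst, Vip, Npy, Cck and Lhx6, did not pass the test. In the test across all 19087 genes with enough counts (edgeR's quasi-likelihood test, adjusted p under 0.05), 2 of the 10 genes passed as lower, beside 4.00% of all genes, and 0 of 10 as higher, beside 3.10% of all genes. Of the 10, 0 passed without wild-type 1, wild-type 2 or transgenic 3, and 1 without transgenic 1 or transgenic 2. With offsets for GC content 0 passed. At an unadjusted p under 0.05, 4 of 10 differed, all of them lower (Gad1, Gad2, Slc32a1 and Reln), beside 27.8% of all genes in either direction and 14.8% of all genes lower. The median log2 fold change of the 10 was -0.054, and that of all genes tested was -0.010. Leaving out transgenic 1 moved the median of the 10 to -0.23, and leaving out transgenic 2 or transgenic 3 turned its sign (0.044 and 0.047).

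The promoters of 4 members are shown, those of both genes that passed the test (Gad2 and Reln), that of Gad1 as the other decarboxylase gene, and that of Sst, the only member whose window held a whole cAMP response element. Each run covers 250 bases before to 50 bases after the start of transcription in RefSeq (GRCm38.p6), reads 5′ to 3′ on the gene's strand, and has the searched motifs on either strand in capitals.
Gad1 (chr2:70561879-70562178, plus strand): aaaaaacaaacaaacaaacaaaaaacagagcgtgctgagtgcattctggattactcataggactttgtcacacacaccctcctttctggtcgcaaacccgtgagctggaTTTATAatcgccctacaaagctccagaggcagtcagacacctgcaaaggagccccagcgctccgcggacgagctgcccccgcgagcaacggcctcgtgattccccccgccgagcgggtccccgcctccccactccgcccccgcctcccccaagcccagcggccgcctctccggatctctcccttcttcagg
Gad2 (chr2:22622077-22622376, plus strand): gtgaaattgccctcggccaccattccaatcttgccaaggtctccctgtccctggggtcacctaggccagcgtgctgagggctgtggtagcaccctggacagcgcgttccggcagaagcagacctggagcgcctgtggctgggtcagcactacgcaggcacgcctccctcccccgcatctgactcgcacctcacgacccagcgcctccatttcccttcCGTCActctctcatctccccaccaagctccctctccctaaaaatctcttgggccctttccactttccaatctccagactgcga
Reln (chr5:22344656-22344955, minus strand): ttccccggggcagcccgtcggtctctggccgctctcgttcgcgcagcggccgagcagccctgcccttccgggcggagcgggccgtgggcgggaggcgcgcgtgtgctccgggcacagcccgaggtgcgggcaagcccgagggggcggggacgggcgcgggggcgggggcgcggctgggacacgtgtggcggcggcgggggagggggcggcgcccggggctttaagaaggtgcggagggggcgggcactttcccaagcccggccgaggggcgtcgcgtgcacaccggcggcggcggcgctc
Sst (chr16:23890795-23891094, minus strand): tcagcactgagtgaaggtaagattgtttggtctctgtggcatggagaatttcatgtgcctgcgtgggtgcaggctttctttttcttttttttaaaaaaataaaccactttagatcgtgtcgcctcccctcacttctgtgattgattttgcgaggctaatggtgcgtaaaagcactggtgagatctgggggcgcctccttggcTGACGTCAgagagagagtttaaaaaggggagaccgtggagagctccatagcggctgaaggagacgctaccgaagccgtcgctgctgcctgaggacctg
The 4 motifs searched on both strands were TGACGTCA, the cAMP response element; TGACG, which lies within it; TATAAA, the TATA box; and TAATTA, the core of homeodomain sites. TGACGTCA stood 48 bases before the start of Sst and in no other window of the members, and 1.79% of the 32851 promoter windows of the table (2.03% of its 27025 genes) held it. TGACG was found in 1 window each of Cck, Gad2, Sst and Vip, 4 of the 10 members, beside 20.8% of all windows and 23.0% of all genes. TATAAA was found for Gad1, Lhx6 and Vip, 3 of the 10 members, beside 13.6% of all windows and 15.7% of all genes. For Gad1 and Lhx6 these letters lay on the opposite strand, at positions -141 and 4 from the start. Only Vip held them on the gene's own strand, at -157, -147 and -30. TAATTA was in none of the 13 windows of the 10 members, beside 5.29% of all windows and 6.12% of all genes. The windows of Gad2 and Reln, the genes that passed, shared no motif of the 4, and that of Reln held none.

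The libraries held between 37414241 and 52497799 counted fragments, and the members had from 527 (Lhx6) to 18798 (Gad1) counts in a library. As a check of the labels, the counts on Orai1, where reads of the human cDNA can also align, rose from 7.47 ± 0.528 to 320.2 ± 9.54 CPM (log2 fold change 5.42), and Thy1, whose sequence is part of the cassette, by 2.66 on the log2 scale. Of 14 choroid plexus epithelium markers, all 14 were lower in transgenic mice, with a summed level of 2523 to 4468 CPM in wild-type and 258 to 491 CPM in transgenic libraries. Of 7 markers of striatal GABAergic neurons none passed the test, but their sum was 266 CPM in wild-type 2, beside 80.8 and 87.2 CPM in the other wild-type and 71.6 to 78.4 CPM in the transgenic libraries. Summed septal and thalamic markers (9 genes) stood at 214, 199 and 133 CPM in wild-type 1 to 3 and at 118 to 133 CPM in transgenic libraries. Wild-type 1 was thus the highest library on this list, and wild-type 3 the lowest of the wild-type ones. The part that these tissues have in the differences of the interneuron genes was not tested. Values without wild-type 1 and without wild-type 2 are given beside the calls of named genes that were lost without them.

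**Figure D1:**
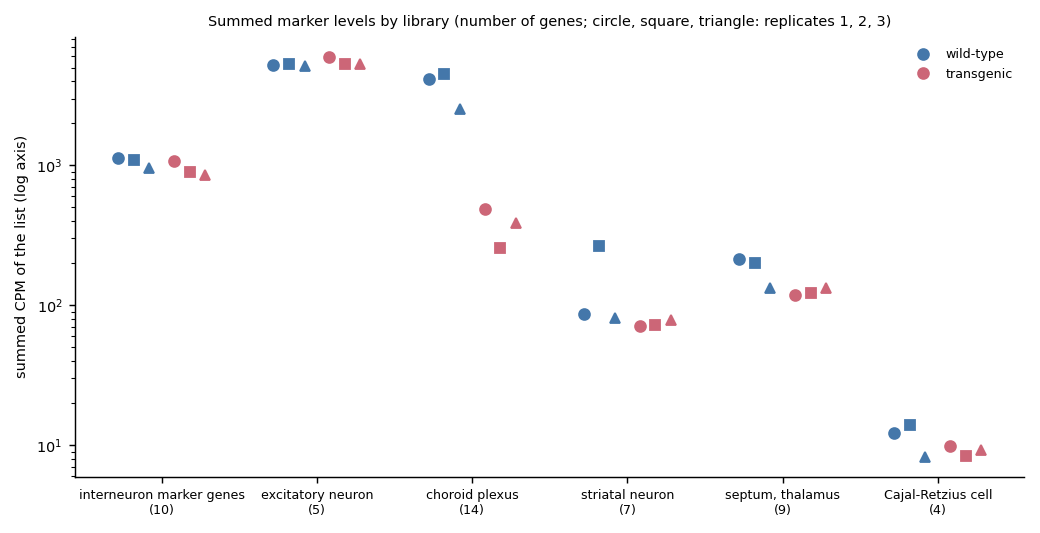
Summed CPM (log axis) of the 10 interneuron marker genes and of 5 marker lists of other cells in each library, 1 point per mouse. The choroid plexus sums of the groups are apart (2523 to 4468 against 258 to 491 CPM), wild-type 2 stands alone on the striatal list at 266 CPM, and the interneuron sums overlap (963 to 1137 against 857 to 1079 CPM).

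In wild-type hippocampus the members ranged over more than an order of magnitude per length. On the scale of FPKM (CPM divided by the exonic length in kb), Sst led with 154 ± 21.9 (SD, n = 3) and Cck followed with 146 ± 5.91. Their ranges overlapped. Npy (44.2 ± 16.4) and Gad1 (42.7 ± 5.47) came next and overlapped as well, followed by Gad2 (30.3 ± 3.57), Slc32a1 (28.7 ± 3.94) and Pvalb (23.8 ± 1.20), of which each overlapped its neighbour. Vip (5.94 ± 0.863), Reln (3.99 ± 0.301) and Lhx6 (3.38 ± 0.394) were the lowest and their ranges were apart. In transgenic mice Cck had the highest mean FPKM (171 ± 33.2) and Sst the second (144 ± 54.4), Pvalb (25.4 ± 4.28) stood above Slc32a1 (23.9 ± 2.58) and Gad2 (21.1 ± 1.46), and Lhx6 (3.43 ± 0.586) above Reln (2.88 ± 0.392).

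Of the genes that make and load GABA, Gad2 passed the test and Gad1 and Slc32a1 did not. Gad2 (chromosome 2, 22622205 to 22693874 on GRCm38, plus strand) was at 196, 182 and 155 CPM in wild-type 1 to 3 and at 131, 127 and 115 CPM in transgenic 1 to 3. All transgenic values lay below all wild-type values, and this was so for 2 of the 10 members, Gad2 and Reln, beside 17.9% of all genes. None of the 10 had all its transgenic values above the wild-type ones, beside 16.9% of all genes. The log2 fold change of Gad2 was -0.52 (SE 0.092, 95% interval -0.73 to -0.30), which is 30.2% less, with an adjusted p of 0.0272 by edgeR's quasi-likelihood test. Gad1 (chromosome 2, 70553072 to 70602014, plus strand) was at 359, 339.7 and 279 CPM in wild-type and at 288, 265 and 254 CPM in transgenic mice. Its groups overlapped through wild-type 3, and its log2 fold change of -0.28 (SE 0.097, 95% interval -0.50 to -0.05) missed the threshold (adjusted p = 0.116, edgeR). Without wild-type 3, Gad1 passed (log2 fold change -0.37, adjusted p = 0.0379 by edgeR). The call of Gad2 was lost without wild-type 1 (adjusted p = 0.122), wild-type 2 (0.120), transgenic 2 (0.0785) or transgenic 3 (0.0958) in edgeR, with log2 fold changes of -0.51 to -0.43 in these 4 fits, and with offsets for GC content (-0.41, adjusted p = 0.0819).

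Slc32a1, the vesicular GABA transporter gene (chromosome 2, 158610767 to 158615748, plus strand), was at 87.5, 86.0 and 67.7 CPM in wild-type and 73.8, 67.0 and 59.3 CPM in transgenic mice. Its log2 fold change was -0.27 (SE 0.114, 95% interval -0.54 to -0.0022), close to that of Gad1, and it did not pass (adjusted p = 0.177, edgeR). Without transgenic 3 the log2 fold change was -0.17 (adjusted p = 0.440, edgeR), and without wild-type 3 it was -0.37 (0.0645). Wild-type 3 again lay among the transgenic libraries. An exon of Gm14205 overlaps it on the other strand, and the counting kept the strand.

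**Figure D2:**
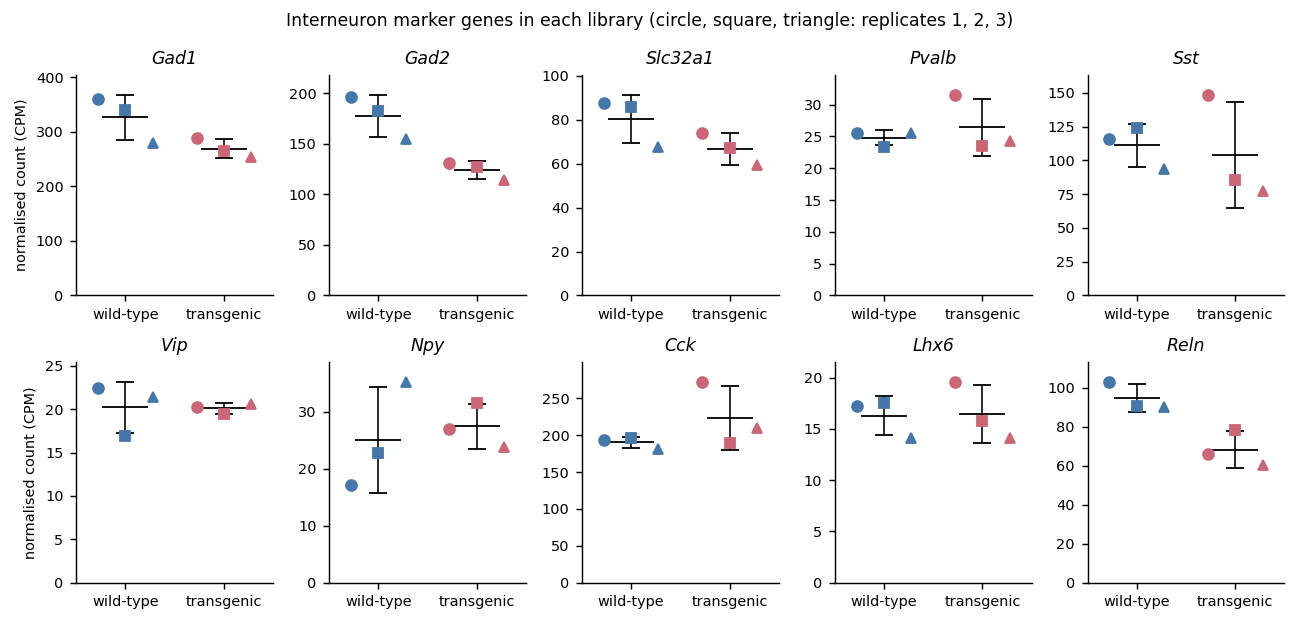
CPM of each of the 10 genes in the 3 wild-type and 3 transgenic libraries (points, 1 per mouse), with the mean and SD of each group (bars), each axis starting at 0. The groups are apart for Gad2 (155 to 196 against 115 to 131 CPM) and Reln (90.4 to 103 against 60.2 to 78.5 CPM) and overlap for the other 8.

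The level of a gene relative to Gad1 in the same library does not depend on how libraries are scaled. The log2 ratio of Gad2 to Gad1 in FPKM was -0.49, -0.52 and -0.47 in wild-type 1 to 3 and -0.76, -0.68 and -0.77 in transgenic 1 to 3. The difference of -0.24 between the group means (-0.49 ± 0.025 against -0.74 ± 0.046, SD, n = 3 each) exceeded the spread within either group. The ratio of Slc32a1 to Gad1 was -0.57 ± 0.034 in wild-type and -0.57 ± 0.071 in transgenic mice, a difference of 0.0065. Cck and Lhx6 had higher ratios to Gad1 in all transgenic libraries than in any wild-type library, by 0.49 and 0.28. These ratios include the lower level of Gad1 (log2 fold change -0.28). Cck and Lhx6 themselves had log2 fold changes of 0.23 and 0.020, and neither passed the test. With Gad2 counted, 3 of the 9 ratios were apart between the groups, all with a two-sided exact permutation p of 0.1 (0.3 after adjustment over the 9). An unadjusted p of 0.1 is the smallest that 3 against 3 mice can give. In CPM, 16.9% of all genes had all transgenic values above and 17.9% below the wild-type ones. The share of all genes whose ratio to Gad1 was apart was not computed. Without wild-type 3, 6 of the 9 were apart, and without transgenic 2, 5 were. Leaving out a mouse can only keep or raise this count, since groups that are apart stay apart. Measured against Gad2 in place of Gad1, 6 of 9 ratios were apart. When any 1 mouse was left out, the difference in the ratio of Gad2 to Gad1 lay between -0.27 and -0.23. Both genes differ in GC content (44.1% for Gad2 and 47.3% for Gad1), and with GC offsets their log2 fold changes were -0.41 and -0.22.

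**Figure D3:**
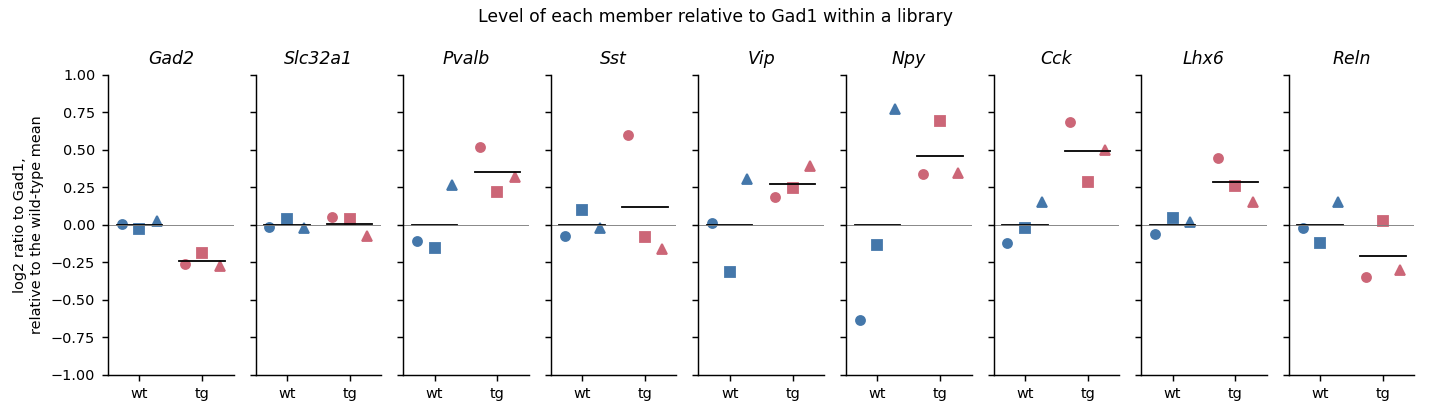
Log2 ratio of each other member to Gad1 within a library, relative to the wild-type mean of that ratio (points, 1 per mouse; bars, group means). For Gad2 the transgenic points lie below all wild-type points, with means 0.24 apart, for Cck and Lhx6 above them, and for the other 6 the groups overlap.

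Reln (chromosome 5, 21884454 to 22344702, minus strand) codes for the glycoprotein that guides neuronal layering in development and acts at synapses in the adult. It was at 103, 90.9 and 90.4 CPM in wild-type and at 66.3, 78.5 and 60.2 CPM in transgenic mice. The groups did not overlap, and the log2 fold change was -0.47 (SE 0.101, 95% interval -0.71 to -0.24), or 28.0% less, with an adjusted p of 0.0387 (edgeR). Of 4 markers of Cajal-Retzius cells none passed, all 4 had negative log2 fold changes (median -0.30, the lowest -0.55), and their sum was 8.27 to 13.9 CPM in wild-type and 8.39 to 9.88 CPM in transgenic libraries. The part of these cells in the value of Reln was not tested. Of the 3 genes of reelin's receptors and adaptor, 1 passed as lower, beside 4.00% of all genes, and 0 as higher, beside 3.10%. The gene that passed was Vldlr, a reelin receptor gene (121 ± 2.06 against 101 ± 1.56 CPM, log2 fold change -0.26, adjusted p = 0.0200 by edgeR). Vldlr passed in 10 of 18 alternative fits: it lost the call without wild-type 1 (adjusted p = 0.114), wild-type 2 (-0.24, 0.123), transgenic 2 (0.0881) or transgenic 3 (0.0927), and with offsets for GC content (-0.14, 0.150) or exonic length (-0.15, 0.106). Dab1, the adaptor gene, was at 124 ± 9.34 and 114 ± 11.4 CPM (adjusted p = 0.375). Lrp8, the other receptor gene, went the other way, at 108 ± 2.36 and 112 ± 4.29 CPM (log2 fold change 0.048, adjusted p = 0.542 by edgeR). The call of Reln was lost in 8 of 18 alternative fits, among them those without wild-type 1 (adjusted p = 0.156 in edgeR), wild-type 2 (0.123), wild-type 3 (0.0565), transgenic 1 (0.0629) or transgenic 3 (0.103). With offsets for exonic length, which is 23738 bases for Reln and has a median of 3730 bases over the genes tested, its log2 fold change was -0.28 (adjusted p = 0.140).

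Genotypes also differed along the genomic span of genes, a grouping chosen after the values were seen. The median log2 fold change was 0.086 for the 3729 genes under 10 kb and -0.19 for the 210 genes over 500 kb, among 14235 genes with a mean log2 CPM above 1. With GC offsets the same medians were 0.066 and -0.097. Gad2 spans 71.7 kb, and the median for genes of 50 to 100 kb was -0.053, beside its own -0.52. Reln spans 460 kb, and the median for genes of 200 to 500 kb was -0.12, beside its own -0.47. Slc32a1 spans 4.98 kb and had a log2 fold change of -0.27, opposite in sign to the median of genes under 10 kb. The part of span in the values of single genes was not tested.

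**Figure D4:**
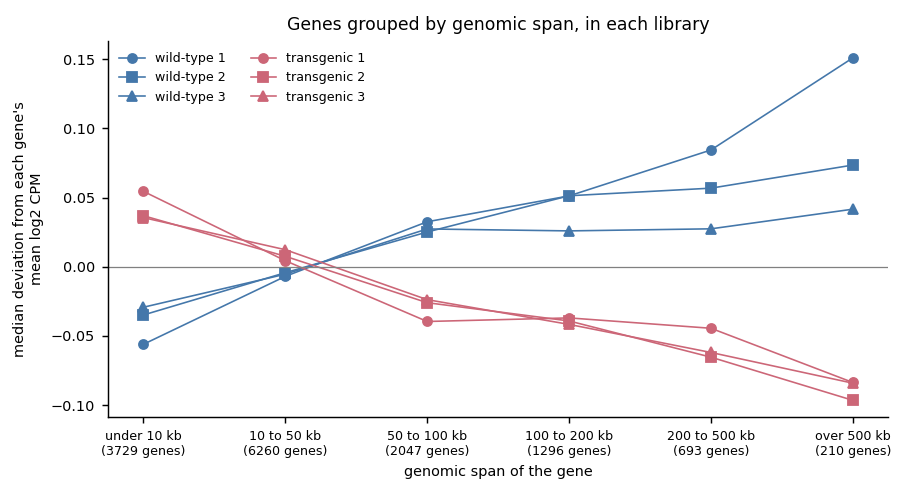
Median deviation of a gene from its own mean log2 CPM over the 6 libraries (vertical axis), for genes grouped by genomic span (horizontal axis, number of genes in brackets), 1 line per mouse. The 3 transgenic lines run from above 0 for genes under 10 kb (0.036 to 0.055) to below 0 for genes over 500 kb (-0.097 to -0.084), and the 3 wild-type lines run the other way.

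The groups overlapped for all 6 subtype markers other than Reln. Sst, the peptide of dendrite-targeting interneurons (chromosome 16, 23889573 to 23890958, minus strand), was at 116, 124 and 93.5 CPM in wild-type and 149, 85.2 and 77.1 CPM in transgenic mice. Transgenic 1 was the highest of all 6 libraries and transgenic 3 the lowest. The log2 fold change was -0.099 with a 95% interval of -0.66 to 0.46 (adjusted p = 0.826, edgeR), and without transgenic 1 it was -0.46 (adjusted p = 0.0641). Npy, the neuropeptide Y gene (chromosome 6, 49822710 to 49829507, plus strand), had the largest spread of the 10 in wild-type relative to its mean (coefficient of variation 37.0%), at 17.1, 22.8 and 35.2 CPM, and was at 26.9, 31.6 and 23.8 CPM in transgenic mice. Its interval ran from -0.43 to 0.70 (log2 fold change 0.14, adjusted p = 0.754, edgeR), and without wild-type 3 the log2 fold change was 0.47 (adjusted p = 0.120). For both peptides the interval holds 0 as well as differences as large as those of Gad2 or Reln in size.

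Pvalb, the gene of parvalbumin in fast-spiking basket cells (chromosome 15, 78191114 to 78206400, minus strand), was at 25.5, 23.4 and 25.6 CPM in wild-type and 31.6, 23.5 and 24.2 CPM in transgenic mice. The groups overlapped, with transgenic 1 alone above the rest, and the log2 fold change was 0.093 (95% interval -0.17 to 0.36, adjusted p = 0.644, edgeR). Lhx6 (chromosome 2, 36081953 to 36105408, minus strand), the transcription factor gene shared by the Pvalb and Sst lineages, was at 17.2, 17.5 and 14.1 CPM in wild-type and 19.6, 15.8 and 14.1 CPM in transgenic mice, with a log2 fold change of 0.020 (95% interval -0.30 to 0.34, adjusted p = 0.943, edgeR). Gm27953 overlaps an exon of Lhx6 on the same strand, so that fragments of both may not be told apart there.

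Vip, the vasoactive intestinal peptide of interneurons that target other interneurons (chromosome 10, 5639218 to 5647617, plus strand), was at 22.4, 16.9 and 21.4 CPM in wild-type and 20.3, 19.4 and 20.6 CPM in transgenic mice. All transgenic values fell within the wild-type range, and the log2 fold change was -0.0089 (95% interval -0.25 to 0.24, adjusted p = 0.968, edgeR). With 38.7% GC its transcript is among the lowest 3.85% of genes tested, and with GC offsets the sign turned (0.20, adjusted p = 0.356). Cck, the cholecystokinin gene of a basket cell type (chromosome 9, 121489824 to 121495694, minus strand), was at 193, 196 and 181 CPM in wild-type and 272, 189 and 209.8 CPM in transgenic mice. Transgenic 1 was again the highest, as it was for Sst, Pvalb and Lhx6, and the log2 fold change was 0.23 (95% interval -0.053 to 0.52, adjusted p = 0.261, edgeR). Without transgenic 1 the log2 fold change of Cck was 0.069 (adjusted p = 0.483, edgeR), and without transgenic 2 it was 0.37 (0.122). Transgenic 1 also had the highest sum of 7 activity-dependent genes (432 CPM, beside 227 to 361 in the others), of which none passed the test. Its sum was likewise the highest for 5 excitatory markers (5966 CPM, beside 5101 to 5313). The same held for 12 markers of hippocampal fields (942 CPM, beside 796 to 841). For 13 transcription factors of interneurons its sum was the lowest (223 CPM). The part of activity in these values was not tested.

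**Figure D5:**
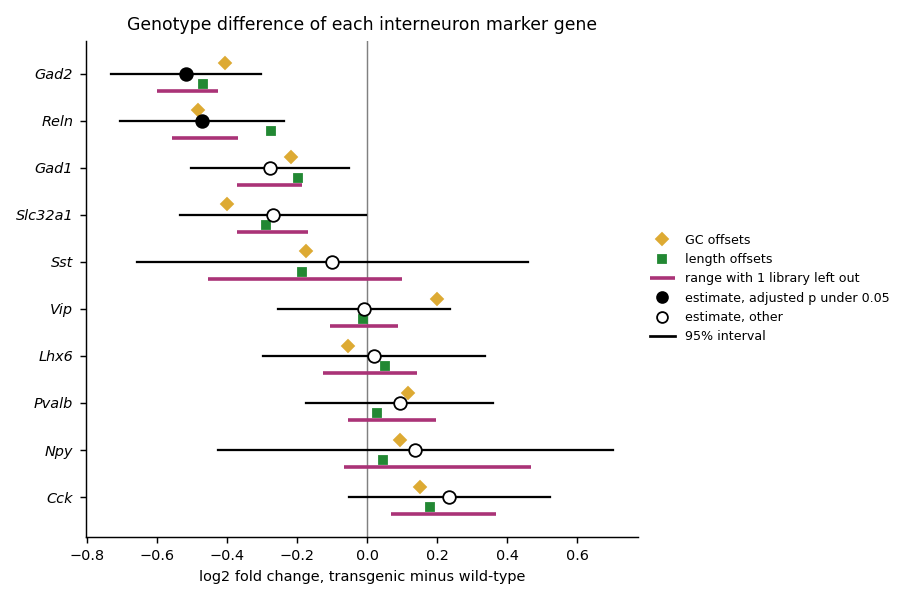
Log2 fold change of each gene, transgenic minus wild-type (circles, filled where the adjusted p is under 0.05; black lines, 95% intervals), with the values under GC offsets (diamonds) and length offsets (squares) and the range when 1 library is left out (purple lines). Gad2 (-0.52) and Reln (-0.47) lie lowest and keep their sign throughout, while the ranges of Sst, Vip, Lhx6, Pvalb and Npy cross 0.

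Other lists of genes for the same cells were counted in the same test, in which 3.10% of all genes were higher and 4.00% lower. Of 8 genes of GABA uptake, breakdown and supply, 0 passed in either direction (median log2 fold change -0.10). At an unadjusted p under 0.05, 3 of these 8 were lower, beside 14.8% of all genes: Abat, the GABA transaminase gene (299 ± 6.18 against 266 ± 7.26 CPM, adjusted p = 0.0590 by edgeR), and Aldh5a1 and Slc38a1, which are named after their values were seen (adjusted p = 0.105 and 0.0738). Of 13 transcription factors of interneurons, 0 passed (median -0.17; 3 positive and 10 negative), of which 2 were lower at an unadjusted p under 0.05, beside 14.8% of all genes, Dlx6 and Sp8 (log2 fold changes -0.54 and -1.22, adjusted p = 0.110 and 0.0671), also named after their values were seen. Sp8 was at 5.41 CPM in wild-type 1, beside 2.77 and 2.14 CPM in the other wild-type and 1.44 to 1.54 CPM in the transgenic libraries. Npas1, with the highest mean FPKM of these factors, went the other way, with a log2 fold change of 0.13 (adjusted p = 0.319 by edgeR). All its transgenic values lay above the wild-type ones, beside 16.9% of all genes.

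The panels of genes that accompany each subtype marker held 3 calls, all lower. Of 6 other genes of parvalbumin cells, 1 was positive and 5 negative (median log2 fold change -0.35), and 1 passed: Erbb4, the neuregulin receptor gene that interneurons express, was at 94.2, 85.5 and 74.6 CPM in wild-type and 56.2, 64.1 and 52.6 CPM in transgenic mice (log2 fold change -0.56, SE 0.101, adjusted p = 0.0280 by edgeR). All its transgenic values lay below the wild-type ones. This held for 3 of these 6 genes, beside 17.9% of all genes. Erbb4 spans 1080 kb. It lost the call with GC offsets (-0.39, adjusted p = 0.0880) or length offsets (-0.42, 0.0508), and without wild-type 1 (0.121), wild-type 2 (-0.54, 0.115), transgenic 2 (0.0509) or transgenic 3 (0.0931). Kcnc1, a potassium channel gene of fast-spiking cells and the positive gene of this list, was at 192 ± 8.18 and 209 ± 15.9 CPM (adjusted p = 0.259). Of 8 other genes of Cck basket and neurogliaform cells (2 positive and 6 negative, median -0.18), 2 passed: Cnr1, the cannabinoid receptor gene (237 ± 4.34 against 203 ± 7.87 CPM, log2 fold change -0.22, adjusted p = 0.0354), and Ndnf, a secreted factor of neurogliaform cells (37.7 ± 3.30 against 29.5 ± 1.71 CPM, -0.36, adjusted p = 0.0406). All transgenic values of Cnr1 and of Ndnf lay below the wild-type ones. This held for 3 of these 8 genes, beside 17.9% of all genes, and 1 of the 8 lay wholly above, beside 16.9%. Cnr1 and Ndnf were not robust to the fit. Each passed in 8 of 18 alternative fits. Cnr1 lost the call with GC offsets (-0.13, adjusted p = 0.173) or length offsets (-0.17, 0.0855), and without wild-type 1 (0.168), wild-type 2 (-0.21, 0.153), wild-type 3 (0.0547), transgenic 2 (0.0860) or transgenic 3 (0.135). Ndnf lost it with GC offsets (-0.20, adjusted p = 0.189) or length offsets (-0.25, 0.0943), and without wild-type 1 (0.154), wild-type 2 (-0.27, 0.146), transgenic 1 (0.0651), transgenic 2 (0.109) or transgenic 3 (0.0931). Of 9 other genes of somatostatin cells and 5 of Vip and calretinin cells, 0 passed, and the medians were -0.14 and 0.089. At an unadjusted p under 0.05, 1 of these 9 was higher, beside 27.8% of all genes in either direction, and 0 lower. It was Nos1 (log2 fold change 0.19, adjusted p = 0.113 by edgeR). In the Vip and calretinin list 0 differed. In the parvalbumin list 2 were lower, in the Cck and neurogliaform list 4, and 0 were higher in either.

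For the receptors of the 4 peptides somatostatin, Vip, neuropeptide Y and cholecystokinin, 11 of 12 genes had enough counts, and 0 passed (5 positive and 6 negative, median -0.017). At an unadjusted p under 0.05, 1 was higher and 1 lower, beside 27.8% of all genes in either direction. These were Sstr2 (log2 fold change 0.53, adjusted p = 0.124 by edgeR) and Npy1r (-0.17, 0.171), named after their values were seen. Npy2r, the presynaptic neuropeptide Y receptor gene, was at 49.0 ± 2.26 and 54.4 ± 8.02 CPM (adjusted p = 0.377 by edgeR). Among 5 markers of excitatory neurons (4 positive and 1 negative, median log2 fold change 0.053), 2 passed as higher, beside 3.10% of all genes, and 0 as lower. Camk2a, the kinase gene with the highest mean FPKM of this list, had a log2 fold change of 0.038 (adjusted p = 0.791). Slc17a7, the vesicular glutamate transporter gene, was at 1179 ± 19.2 and 1408 ± 48.5 CPM (log2 fold change 0.26, adjusted p = 0.0356), and Neurod2, a transcription factor gene, at 142 ± 0.281 and 177 ± 11.4 CPM (0.32, adjusted p = 0.0239). Both lost the call with GC offsets (adjusted p = 0.105 and 0.0602), and without wild-type 1 (0.162 and 0.121), wild-type 2 (0.150 and 0.115), transgenic 2 (0.0925 and 0.0555) or transgenic 3 (0.0982 and 0.0756). Slc17a7 also lost it without wild-type 3 (adjusted p = 0.0543). Of 12 markers of hippocampal fields 0 passed (median 0.072). Of 11 glial and vascular markers 1 passed, the endothelial gene Cldn5, which was higher (log2 fold change 0.66, adjusted p = 0.0430). Cldn5 passed in 9 of 18 alternative fits, and lost the call with GC offsets (adjusted p = 0.101) or length offsets (0.0515), and without wild-type 1 (0.147), wild-type 2 (0.58, 0.136), transgenic 2 (0.0851) or transgenic 3 (0.103).

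Genes outside the members were ranked by how closely their levels followed the mean centred log2 CPM of Gad1, Gad2 and Slc32a1 over the 6 libraries. That mean profile fell from 0.32 and 0.25 in wild-type 1 and 2, through -0.040 in wild-type 3 and -0.063 in transgenic 1, to -0.17 and -0.29 in transgenic 2 and 3. The 5 nearest genes were Cntnap2, Pde4d, Pcsk2os1, Efcab1 and Csmd3, with root mean square differences of 0.033 to 0.046 over 6 libraries. Their spans were 2240 kb for Cntnap2, 1500 kb for Pde4d, 12.4 kb for Pcsk2os1, 74.8 kb for Efcab1 and 1210 kb for Csmd3, beside a median of 18.9 kb over the genes tested. The profile holds the genotype and the mice in the same 6 values, and no test was made of this likeness.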

How the data were processed

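RNA of 6 hippocampi, 3 wild-type and 3 FVB/NJ-Tg(Orai1)Ibd, was sequenced, and libraries were grouped by the genotype label. Per the labels and the study's methods, the authors filtered reads with Trimmomatic, aligned them to mm10 with STAR and counted them with featureCounts 1.5.0-p1 on the Ensembl 95 annotation (reversely stranded, read pairs as fragments, primary alignments, mapping quality of at least 3). The authors deposited these counts, which are whole numbers without normalization, and the exonic length of every gene.

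Genes were kept by filterByExpr (minimum count of 10), counts were scaled by TMM, and the transgenic group was tested against the wild-type one by the quasi-likelihood method of edgeR with no covariate, adjusting p over the 19087 genes tested (Benjamini-Hochberg, threshold 0.05). CPM, and FPKM from the deposited lengths, were computed here; log2 CPM had a prior count of 2. Within-library ratios were compared with exact two-sided permutation tests. GC content and positions came from GENCODE M21 (54809 of 54838 genes matched), and promoters from RefSeq. The fits were tested on simulated data. They missed the share of changed genes first required of them over all genes, mostly among genes with few counts, and the requirement was then limited to genes with more counts, among which the members lie. R 4.3.3, edgeR 4.0.16, limma 3.58.1, DESeq2 1.42.0, Python 3.11.15 and matplotlib 3.10.9 were used.

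The members and the other gene lists were chosen with earlier results of these data known. Named are the members; of each other list, genes with an adjusted p under 0.05 or the highest mean FPKM; and the 5 genes nearest in profile to Gad1, Gad2 and Slc32a1. Not every gene under this rule is reported here, and some genes outside it were named after their values were seen. The symbol Dlx6os1 has more than 1 identifier and was left out. The alternatives were other scalings, DESeq2's Wald test, limma-voom, other filters, offsets for GC content or exonic length (loess, span 0.5), the replicate number as a block, and leaving out each mouse. P-values cover the spread between these mice, and counting error is part of it.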

Additional observations from a re-analysis of the deposited data

How the results depend on the processing

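Over 18 alternative fits, Gad2 kept its sign with log2 fold changes from -0.60 to -0.41 and passed the test in 13, and Reln kept its sign from -0.56 to -0.28 and passed in 10; the 2 members that passed did so under every other scaling, test and filter tried. Counts of genes higher and lower in transgenic mice, 591 and 764, became 1055 and 1175 with DESeq2's Wald test and 168 and 244 with GC offsets, where 0 members passed. With length offsets 406 genes were higher and 372 lower, which turns the balance of the calls, and 1 member passed (Gad2). Without 1 mouse the counts ran from 11 to 466 higher and from 66 to 683 lower, members passing from 0 to 2, and their median log2 fold change from -0.23 to 0.047. The ratios to Gad1 that were apart ran from 3 to 6, a count that leaving out a mouse cannot lower. With Gad2 as reference 6 were apart. Same-numbered libraries share only a number, and their deviations correlated at 0.40, -0.36 and 0.39 (11191 genes), which does not pair them. With the replicate number as a block, 263 genes were higher and 475 lower, and Gad2 and Reln still passed (adjusted p = 0.00854 and 0.0420, edgeR). Of the genes named from other lists, Cnr1, Ndnf, Slc17a7 and Cldn5 missed the threshold with the block (adjusted p = 0.0563, 0.0673, 0.0675 and 0.0559). With the block and GC offsets 164 were higher and 310 lower, and Slc32a1 passed as well (-0.40, adjusted p = 0.0148); with the block and length offsets 230 were higher and 339 lower, and 1 member passed. Signs turned for genes that did not pass: Vip was 0.0021 without a filter, 0.0035 with at least 10 counts in every library, 0.20 with GC offsets and 0.204 with the block added; Lhx6 was -0.056 and -0.060 in these last 2 fits. Without 1 mouse, Vip ran from -0.11 to 0.088, Lhx6 from -0.13 to 0.14, Npy from -0.065 to 0.47, Pvalb from -0.056 to 0.20 and Sst from -0.46 to 0.099. Fits without a mouse had fewer samples, and the cause of the other changes was not tested. With 3 mice per genotype, exact tests of single values cannot go below p = 0.1.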
